A study of Mus musculus with 6 samples.

Results

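The genes that decide where DNA replication may start were measured on 6 arrays in CAD cells, a catecholaminergic cell line from mouse neuroblastoma. They are the origin recognition subunit genes Orc1 to Orc6 and the licensing genes Cdc6, Cdt1, Gmnn and Dtl. The platform annotation assigns 25 probe sets to 1 of these 10 genes alone, among 45037 probe sets and 18193 genes on the array without its control probe sets. A further probe set of Orc4, also assigned to another gene, was not used. In 3 cultures the cells were transfected with RIPmiR-124a-2, a plasmid that expresses the neuronal microRNA precursor miR-124a-2, and in 3 cultures with the empty plasmid (RI vector). All cultures grew in the same kind of medium, with fetal bovine serum or Fetaclone III, and the labels do not say which serum a culture received, how many cells took up the plasmid or when RNA was taken. The 10 genes were chosen by name with their difference between these groups already known, so the values below describe that difference and are not independent support for it.

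Before a cell enters S phase, the origin recognition complex binds DNA and, with Cdc6 and Cdt1, loads the MCM helicase in pairs around the double helix, which licenses the site to fire later. Geminin, the product of Gmnn, binds Cdt1 and blocks further loading, and Dtl (also called Cdt2) is the substrate receptor of a CUL4 ubiquitin ligase that marks Cdt1 for destruction on replicating DNA. Cells that leave the division cycle as they become neurons shut licensing down, and several of these genes are known to be transcribed under E2F control.

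Values are log2 signals, so that a difference of 1 is a 2-fold change, and a probe set is said to have passed at an adjusted p under 0.05 in limma's fit over all 45037 probe sets. With the miR-124a-2 plasmid, the largest differences were in Cdc6, Orc2 and Dtl, each with 1 probe set that fell. Cdt1, Gmnn, Orc1 and Orc6 had smaller differences in the same direction, whose plasmid arrays all lay below the vector arrays in at least 1 probe set but which did not pass. Orc3, Orc4 and Orc5 had differences near 0 with overlapping groups. Of the 25 probe sets, 3 fell, 0 rose and 22 did not pass, where 0.209% of all probe sets fell and 0.06% rose. At an unadjusted p under 0.05, 14 of the 25 were lower and 0 higher, against 4.76% and 3.43% of all probe sets. The plasmid arrays lay entirely below the vector arrays in 14 of the 25 and entirely above them in 0, against 6.97% and 6.28% of all probe sets. These 14 are not separate genes, since Orc2 gave 3 of them and Dtl 5. In a fit of the brightest probe set of each gene, 7 of the 10 were lower at an unadjusted p under 0.05. Over the array, 7.6% of genes had at least 1 probe set lower at that level in the main fit. The median log2 difference was -0.38 over the 25 probe sets and 0.0023 over the array. RNA came from whole cultures, so fewer cells in the phase that expresses a gene and less of its RNA per cell cannot be told apart.

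**Figure D1:**
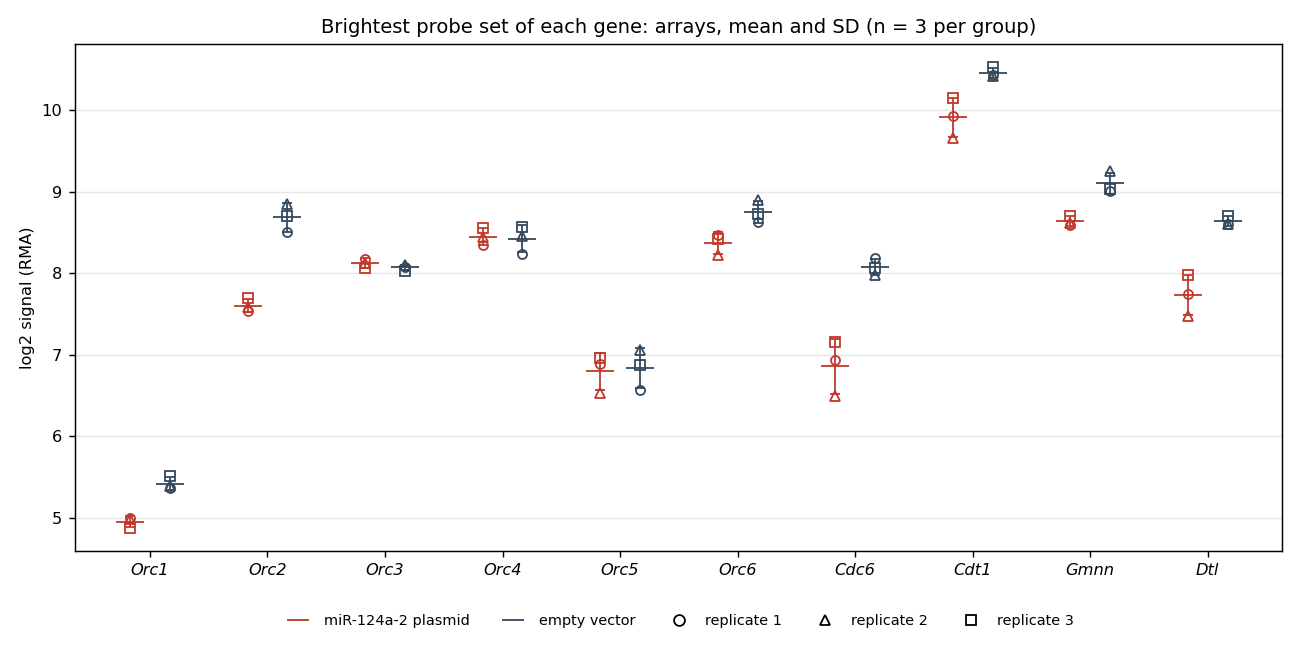
Log2 signal of the brightest probe set of each of the 10 genes (y axis) in 3 miR-124a-2 plasmid arrays (red, left) and 3 empty vector arrays (blue, right), with bars for the mean ± SD and a symbol for each replicate. The 2 groups are apart for Orc1, Orc2, Orc6, Cdc6, Cdt1, Gmnn and Dtl and overlap for Orc3, Orc4 and Orc5; heights of different genes are not comparable, since each probe set has its own brightness.

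The promoters of 4 genes are printed because Cdc6, Dtl and Orc2 had the largest differences and Orc3 is one of the genes with differences near 0, and because E2F factors are known regulators of this group. Each is a RefSeq window of 300 bases on GRCm38.p6, from 250 before a transcript start to 50 after it, written 5′ to 3′ on the gene's strand. Capitals mark the E2F-like letters TTTCCCGC, TTTCGCGC, TTTGGCGC or TTTGCCGC, searched on both strands. Windows were found for 9 of the 10 genes (12 windows), with Gmnn not among them. The windows lie at chr11:98907901-98908200 on the plus strand for Cdc6, at chr1:191575495-191575794 on the minus strand for Dtl, at chr1:58505060-58505359 on the minus strand for Orc2, and at chr4:34614893-34615192 on the minus strand for Orc3.
Cdc6: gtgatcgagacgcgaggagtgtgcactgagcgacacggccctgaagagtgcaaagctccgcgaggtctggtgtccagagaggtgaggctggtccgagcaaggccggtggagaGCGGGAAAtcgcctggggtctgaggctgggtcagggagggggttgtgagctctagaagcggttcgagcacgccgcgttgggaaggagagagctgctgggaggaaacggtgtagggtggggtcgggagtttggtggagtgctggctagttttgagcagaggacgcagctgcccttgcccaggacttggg
Dtl: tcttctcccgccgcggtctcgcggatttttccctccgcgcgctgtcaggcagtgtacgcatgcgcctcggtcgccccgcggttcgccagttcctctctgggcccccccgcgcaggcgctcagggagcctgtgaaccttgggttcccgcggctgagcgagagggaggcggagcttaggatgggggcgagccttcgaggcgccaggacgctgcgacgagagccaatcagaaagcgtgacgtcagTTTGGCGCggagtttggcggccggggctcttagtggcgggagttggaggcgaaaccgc
Orc2: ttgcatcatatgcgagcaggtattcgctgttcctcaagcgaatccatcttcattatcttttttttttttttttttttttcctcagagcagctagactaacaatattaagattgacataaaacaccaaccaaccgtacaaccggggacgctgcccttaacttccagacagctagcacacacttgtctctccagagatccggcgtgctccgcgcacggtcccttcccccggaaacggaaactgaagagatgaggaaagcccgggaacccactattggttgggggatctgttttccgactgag
Orc3: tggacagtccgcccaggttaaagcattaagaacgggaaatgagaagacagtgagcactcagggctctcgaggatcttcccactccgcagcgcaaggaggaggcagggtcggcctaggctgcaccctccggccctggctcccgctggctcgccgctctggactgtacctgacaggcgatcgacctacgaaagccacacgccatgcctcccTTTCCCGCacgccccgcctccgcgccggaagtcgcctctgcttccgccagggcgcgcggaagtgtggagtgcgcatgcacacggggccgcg

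The letters stood in the windows of Cdc6 (first base 138 bases before the start), Dtl (8 before), Orc3 (41 before), Orc1 (27 before) and Cdt1 (33 after), which makes 5 of 9 genes, and no window held overlapping matches. Among 27025 genes with a window of this length, 2.60% held them, and among 32851 windows 2.26%. The windows behind these shares were not matched to those of the 9 genes in base composition. Of the genes with the letters, Cdc6, Dtl, Orc1 and Cdt1 were lower with groups apart, and Orc3 had a difference near 0. Of those without them, Orc2 (2 windows) and Orc6 were lower with groups apart, and Orc4 and Orc5 had differences near 0. Any link between the letters and the differences was not tested. With the same letters lacking their first T, which every longer match also contains, 6 of 9 genes had a match, Orc4 being the added one, against 10.9% of all genes. These are matches of letters and not measured binding.

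Of the origin recognition subunits, Orc2 had the largest difference. Its product is a core subunit of the complex. Its brightest probe set, 1418226_at, read 7.53, 7.58 and 7.70 with the plasmid, against 8.50, 8.86 and 8.70 with the vector. Every plasmid array was below every vector array, and the plasmid arrays lay closer to each other than the vector arrays did. The log2 difference was -1.08 ± 0.12 (SE, n = 3 per group), or 2.12-fold lower, with an adjusted p of 0.0195 in limma. The dimmer probe sets 1418227_at and 1418225_at had log2 differences of -1.23 ± 0.31 and -1.06 ± 0.22 (SE) and did not pass (adjusted p = 0.209 and 0.124 in limma). In both of them plasmid replicate 3 stood above the other 2 plasmid arrays, at 6.51 against 5.60 and 5.62 in 1418227_at. The 3 probe sets of Orc2 thus gave like differences and unequal spreads.

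Orc1, the largest subunit, which binds nucleotide and whose level is known to change through the cell cycle, had 2 probe sets, 1 of them with a mean below 5.0. The brighter, 1422663_at, had log2 signals of 4.99, 4.98 and 4.88 in the plasmid arrays and 5.36, 5.39 and 5.50 in the vector arrays. Its mean of 5.18 was little above 5.0, so this reading was faint as well. The groups did not overlap, and the log2 difference of -0.47 ± 0.09 (SE) did not pass (adjusted p = 0.117 in limma). The other probe set, 1443172_at, had a log2 difference of -0.33 ± 0.15 (SE), with plasmid replicate 1 above vector replicate 2. Orc6, the smallest subunit and the one least like the others in sequence, had 8.47, 8.22 and 8.43 with the plasmid and 8.63, 8.90 and 8.73 with the vector. The arrays did not overlap, but the gap between the nearest of them was smaller than the range within either group, and the log2 difference of -0.38 ± 0.11 (SE) did not pass (adjusted p = 0.328 in limma).

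Orc3, Orc4 and Orc5 are further core subunits, and Orc4 and Orc5 share with Orc1 the nucleotide-binding fold of this protein family. The brightest probe set of Orc3, 1416115_at, read 8.18, 8.13 and 8.06 in plasmid arrays and 8.08, 8.10 and 8.03 in vector arrays. Its log2 difference was 0.05, with a 95% confidence interval of -0.15 to 0.26. Orc4 (1453804_a_at) had 8.35, 8.45 and 8.55 with the plasmid and 8.24, 8.46 and 8.57 with the vector, a log2 difference of 0.02 (interval -0.24 to 0.29). Orc5, with a single probe set, had 6.89, 6.53 and 6.96 with the plasmid and 6.57, 7.06 and 6.87 with the vector, a log2 difference of -0.04 (interval -0.41 to 0.33). In all 3 genes the groups overlapped, and each interval leaves out a 2-fold change in either direction. The other probe sets of Orc3 and Orc4 had log2 differences of -0.16 to 0.09, and 1423337_at of Orc4 was the least precise of them (-0.07, interval -0.63 to 0.49). The smallest adjusted p of these 8 probe sets was 0.807 in limma.

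Cdc6 is the ATPase that joins the origin-bound complex and recruits the helicase with Cdt1. Its probe set, 1417019_a_at, read 6.94, 6.49 and 7.15 with the plasmid and 8.19, 7.98 and 8.07 with the vector. All plasmid arrays were below all vector arrays, and they were more spread (SD 0.34 with the plasmid and 0.10 with the vector). The log2 difference was -1.22 ± 0.17 (SE, n = 3 per group), so that Cdc6 fell 2.33-fold (adjusted p = 0.0381 in limma). With a single probe set, Cdc6 has no second reading of its own on this array.

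Cdt1, the other loading factor, had lower values in 2 bright probe sets. In 1424143_a_at the log2 signals were 9.94, 9.67 and 10.15 with the plasmid, against 10.44, 10.42 and 10.53 with the vector. In 1424144_at they were 9.04, 8.68 and 8.99 with the plasmid and 9.66, 9.40 and 9.48 with the vector. Neither probe set had overlapping groups, and in both plasmid replicate 2 was the lowest array. Their log2 differences of -0.55 ± 0.13 and -0.61 ± 0.13 (SE) did not pass (adjusted p = 0.191 and 0.132 in limma). The third, 1455791_at, averaged 3.26 ± 0.14 with the plasmid and 3.46 ± 0.21 with the vector (SD, n = 3 each), and its groups overlapped at this low signal.

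Gmnn, the inhibitor of Cdt1, had 8.60, 8.61 and 8.71 with the plasmid and 9.01, 9.26 and 9.04 with the vector in its 1 probe set. The groups were apart and the plasmid arrays close together, and the log2 difference was -0.46 ± 0.10 (SE, interval -0.70 to -0.23, adjusted p = 0.154 in limma). The loading factors and their inhibitor thus had differences of the same sign, and the difference between them was not tested.

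Dtl, the receptor through which Cdt1 is destroyed, was read by 6 probe sets, all with negative log2 differences (-1.13 to -0.25). The brightest, 1434695_at, read 7.74, 7.48 and 7.97 with the plasmid and 8.60, 8.61 and 8.71 with the vector. The vector arrays lay close together, the plasmid arrays were spread below them, and Dtl fell by 0.91 ± 0.13 (SE, adjusted p = 0.0496 in limma, just inside the threshold), a 1.88-fold difference. The next in brightness, 1443864_at, had 6.21, 6.33 and 6.97 with the plasmid and 7.30, 7.72 and 7.87 with the vector. Its log2 difference of -1.13 ± 0.22 (SE) was larger than that of the brightest and did not pass (adjusted p = 0.109 in limma). Of the other 4, all with a mean below 5.0, 3 had groups apart, and 1430228_at came nearest to the threshold with a log2 difference of -0.53 ± 0.10 (SE, adjusted p = 0.0887 in limma). Groups overlapped in 1439520_at alone among the probe sets of Dtl.

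**Figure D2:**
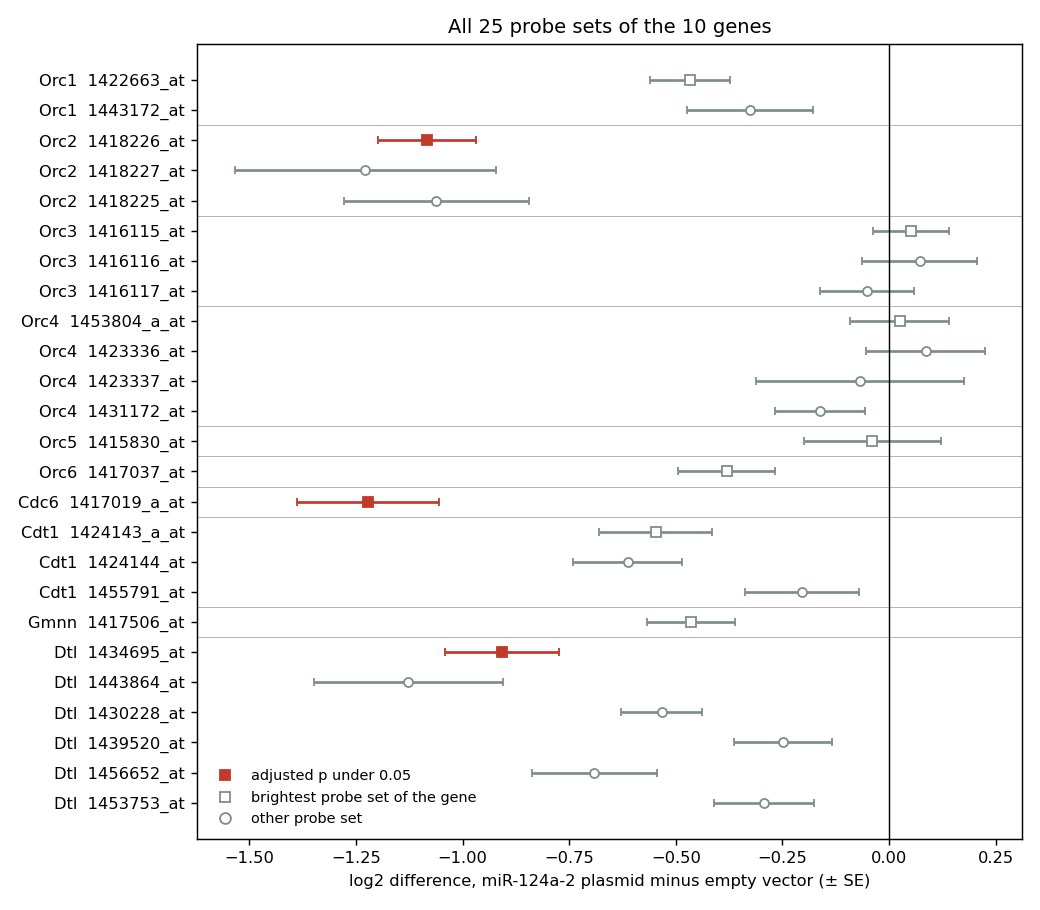
Log2 difference (miR-124a-2 plasmid minus empty vector, ± SE from limma) of each of the 25 probe sets, grouped by gene. Filled red squares mark the 3 probe sets with an adjusted p under 0.05 (Orc2, Cdc6 and Dtl), open squares the other genes' brightest probe sets and open circles all other probe sets; those of Orc3, Orc4 and Orc5 lie around 0, from -0.16 to 0.09.

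The arrays differed in ways that cut across the groups. The interquartile range over all probe sets was 3.06 to 3.10 in the narrow arrays, which are plasmid replicates 1 and 2 and vector replicate 1. It was 3.26 to 3.35 in the wide arrays, which are plasmid replicate 3 and vector replicates 2 and 3. Probe sets for poly-A control transcripts, which can be spiked into RNA, averaged 5.70 in plasmid replicate 1 and 5.68 in vector replicate 1. In the other 4 arrays they averaged 5.34 to 5.45. Markers of a catecholaminergic neuroblast were present, with vector means above 5.0 for 8 of 9, among them Dbh at 10.52 with the plasmid and 10.16 with the vector and Hand2 at 11.33 with the plasmid and 11.31 with the vector. The others of this list had vector means of 12.16 for Chgb, 11.08 for Phox2a, 8.60 for Chga and 6.32 for Th. Gata3 (5.28), Ddc (5.23) and Slc18a2 (3.99) were lower. Of the markers of fibroblasts, glia and leukocytes, 1 of 5 in each list had a vector mean above 5.0. The highest were Csf1r at 6.16 and Sox10 at 5.99, above Gata3 and Ddc. The values within each array set are given next.

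Within the narrow arrays the log2 difference was -1.47 for Cdc6, -0.95 for Orc2 and -0.99 for Dtl in their brightest probe sets. Within the wide arrays it was -0.87 for Cdc6, -1.08 for Orc2 and -0.68 for Dtl. Both array sets gave negative differences for these genes, larger in the narrow arrays for Cdc6 and Dtl and in the wide arrays for Orc2. For Cdt1 the brightest probe set had -0.64 in narrow and -0.33 in wide arrays, for Gmnn -0.41 and -0.44, for Orc6 -0.29 and -0.39, and for Orc1 -0.37 and -0.57. For Orc3, Orc4 and Orc5 the narrow differences were 0.07, 0.16 and 0.14 and the wide ones -0.0048, 0.037 and -0.0018. Each narrow value rests on a single vector array and each wide value on a single plasmid array. With the array set as a term of the fit, 7 of the 25 probe sets fell, namely all 3 of Orc2, that of Cdc6 and 3 of Dtl, where 0.693% of all probe sets fell.

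**Figure D3:**
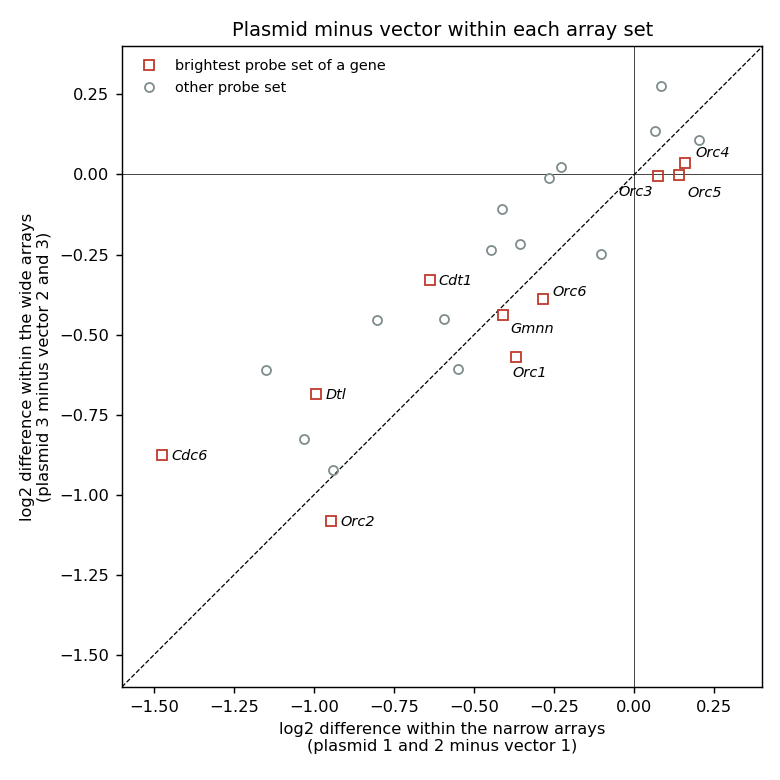
Log2 difference (plasmid minus vector) of the 25 probe sets within the narrow arrays (x axis) and within the wide arrays (y axis), with a dashed line where the 2 are equal. Squares are the brightest probe sets of the 10 genes. Of these, 7 are below 0 on both axes, against 5701 of the 18193 genes on the array, and Orc3, Orc4 and Orc5 lie near the origin.

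The calls depended on single arrays, over all probe sets as well as for these genes. Of all 45037 probe sets, 0 passed in limma without plasmid replicate 1 or any one of the vector replicates. Without plasmid replicate 2, 12 passed, and without plasmid replicate 3, 356. Of the 25 probe sets, 0 passed in limma without plasmid replicate 1, plasmid replicate 2 or any one of the vector replicates 1, 2 and 3 (13 to 14 were lower at an unadjusted p under 0.05), and 5 fell without plasmid replicate 3. Over these 6 fits the log2 difference in the brightest probe set stayed negative for Cdc6, Orc2 and Dtl. With each array centred on its median, Orc2 passed, and Cdc6 (adjusted p = 0.0634 in limma, from 0.0138 to 0.313 over the alternatives) and Dtl (adjusted p = 0.104, from 0.0155 to 0.330) did not. With the mean of its 6 probe sets Dtl had a log2 difference of -0.63 and did not pass (adjusted p = 0.0515 in limma). Among plasmid arrays, replicate 3 was the highest for 7 of the 10 brightest probe sets and replicate 2 for 0. Among vector arrays, replicate 1 was the lowest for 7 of 10.

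Other genes of the same pathway were counted by gene, a gene being lower when at least 1 of its probe sets passed as lower. Over the array 0.385% of genes were lower and 0.121% higher by that rule, and 7.6% and 6.5% at an unadjusted p under 0.05. The median log2 difference of the brightest probe sets was 0.015 over all genes and -0.47 over the 10 genes above. In the MCM helicase list, the proteins that licensing loads, 2 of 9 genes were lower, 0 were higher and 7 did not pass, with a median of -0.64. Mcm2 had 8.98, 8.82 and 9.30 with the plasmid and 9.92, 10.08 and 10.10 with the vector, and fell by 1.00 ± 0.14 (SE, adjusted p = 0.0381 in limma). Mcm5, in 1415945_at, had 9.09, 9.05 and 9.24 with the plasmid and 9.84, 9.99 and 9.89 with the vector, and fell by 0.78 ± 0.10 (SE, adjusted p = 0.0283 in limma). Both subunits of the helicase ring had groups apart. The brightest probe set of Mcm5 did not pass (adjusted p = 0.0697 in limma). With 1 array left out, 0 genes of the lists passed in limma except without plasmid replicate 3, when 9 were lower, and 33 to 46 genes had an unadjusted p under 0.05 in those fits without a pass.

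Among 13 genes of origin firing, the step that activates the loaded helicase, 0 were lower and 0 higher in limma (11 lower and 0 higher at an unadjusted p under 0.05), and all 13 brightest probe sets had negative differences (median -0.47). Cdc45, a subunit of the active helicase, averaged 7.07 ± 0.16 with the plasmid and 7.76 ± 0.09 with the vector (SD, n = 3 each), with an adjusted p of 0.0695 in limma. Gins1, of the GINS complex in the same machine, averaged 7.36 ± 0.15 with the plasmid and 7.93 ± 0.17 with the vector (adjusted p = 0.149 in limma). Among 14 genes that degrade or restrain licensing factors, 0 passed in either direction (6 lower and 1 higher at an unadjusted p under 0.05) and the median was -0.09. Skp2, an F-box protein that also targets Cdt1, averaged 6.96 ± 0.36 with the plasmid and 8.01 ± 0.16 with the vector (adjusted p = 0.0788 in limma), with all 6 of its probe sets below 0. Fbxo5, an inhibitor of the anaphase-promoting complex, which destroys geminin, averaged 8.58 ± 0.20 with the plasmid and 9.20 ± 0.18 with the vector. The partners of Dtl in its ligase had log2 differences of -0.04 for Cul4a, 0.01 for Ddb1, -0.09 for Rbx1 and -0.09 for Cul4b in their brightest probe sets. The 1 probe set of Rbx1 was dim, averaging 4.68 with the plasmid and 4.77 with the vector, and may not read its transcript. The other probe set of Cul4b, 1417454_at, went the other way with 0.36 ± 0.11 (SE, adjusted p = 0.332 in limma), and Cul4b was the 1 gene of this list higher at an unadjusted p under 0.05.

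Of 8 cyclins and kinases, 0 passed in limma (6 lower at an unadjusted p under 0.05) and the median was -0.43. Ccne2 averaged 6.98 ± 0.41 with the plasmid and 7.58 ± 0.26 with the vector, and its kinase Cdk2 averaged 7.72 ± 0.18 with the plasmid and 8.29 ± 0.06 with the vector (SD, n = 3 each). Of 13 E2F and RB family genes, 0 passed (8 lower at an unadjusted p under 0.05) and the median was -0.41. E2f8, a repressor of the family, averaged 6.59 ± 0.55 with the plasmid and 7.66 ± 0.28 with the vector (adjusted p = 0.207 in limma), and Rbl1, which encodes the pocket protein p107, had 6.25 ± 0.60 with the plasmid and 7.27 ± 0.36 with the vector. Of 6 chromatin partners of origins, 0 passed (1 lower at an unadjusted p under 0.05) and the median was -0.21. Among brightest probe sets the largest log2 differences were -0.30 ± 0.37 (SE) for Phf6 and -0.29 ± 0.15 (SE) for Kat7, a histone acetyltransferase that acts with Cdt1. Only 1 of the 3 probe sets of Kat7 was below 0, against 3 of 3 for Phf6. The gene with the low unadjusted p was Rif1, known for restraining origin firing, in 2 of its 4 probe sets. Its 1437179_at had a log2 difference of -0.67 ± 0.22 (SE, adjusted p = 0.412 in limma).

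**Figure D4:**
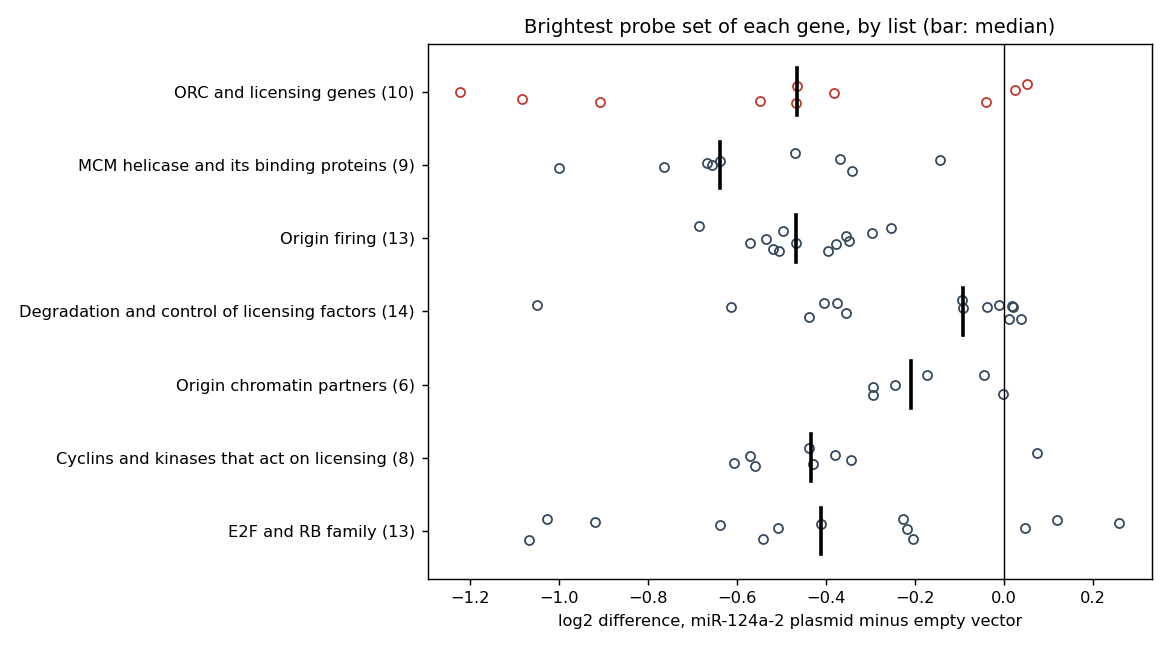
Log2 difference (plasmid minus vector) of the brightest probe set of each gene, for the 10 origin recognition and licensing genes (red) and 6 lists of the same pathway (blue), with a bar at each median. Medians run from -0.64 in the MCM list to -0.09 in the list of degradation and control genes, and that of the 10 genes is -0.47.

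The genes most like the 10 in their course over the 6 arrays were found by Pearson's correlation with the mean of their centred brightest probe sets, among 6632 other genes with a mean of at least 7.0. The closest 5 were Mcm6 (r = 0.997), Nup37 (r = 0.997), Cks1b (r = 0.996), Crtap (r = 0.996) and Elovl1 (r = 0.996). Mcm6 is a subunit of the loaded helicase, Cks1b a partner of Skp2 and of cell cycle kinases, Nup37 a nuclear pore protein, Crtap a protein of collagen modification and Elovl1 a fatty acid elongase. Mcm6 had 10.03, 9.94 and 10.13 with the plasmid and 10.35, 10.45 and 10.40 with the vector. Crtap had 8.87, 8.63 and 9.01 with the plasmid, against 9.77, 9.95 and 9.98 with the vector. These likenesses rest on 6 arrays that share the difference between groups and the array sets.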

How the data were processed

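Per the submitters' processing notes, RMA produced the deposited log2 values of each array, a single number for every probe set; its version, the probe definitions and any filter are not given in the sources used here. The 6 columns were used as they stand, and sorted values differed by at most 0.19 between arrays. GEO's platform annotation names 1 gene for 34945 probe sets and several for 932, and does not list 9160. The 64 control probe sets were left out of tests. Arrays have no depth in reads, so their number sets the precision.

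The plasmid and vector groups were compared by limma 3.58.1 under R 4.3.3, using lmFit and eBayes with two-sided tests and no blocking term, and p-values were adjusted by Benjamini-Hochberg over 45037 probe sets at 0.05. The labels call the replicates biological. Every probe set was fitted on its own, and levels and lists use the brightest probe set of a gene. The narrow and wide arrays, and the arrays of high and low poly-A signal, were divided at the largest gap. Both divisions come from the signals and not from the labels. The model was tested on simulated data of 45037 probe sets with independent normal noise. They lacked the array sets and poly-A differences of the real arrays. It found 9.2% of changes of -0.5, 70.8% of -1, 87.6% of -1.5 and 96.8% of -2 (log2). These rates hold for that setting and may not hold for the real arrays.

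The members, lists and alternatives were chosen with earlier results of these data known. Named genes are the 10 members, from each list up to 3 that passed or else the 2 with the largest difference, and the 5 most alike. Cul4a, Cul4b, Ddb1, Rbx1 and Rif1, and the cell type markers given with values, were named after their values were seen. Ccnb1 and Hmga1 were not analysed here. Promoter windows come from RefSeq.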

Additional observations from a re-analysis of the deposited data

How the results depend on the processing

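The 3 member calls held (3 probe sets) with a minimum mean of 5.0, with an intensity trend and robust estimation, and with the brightest probe set per gene, and 0 members rose in any fit. With the replicate number as a block, 8 members fell, 498 probe sets fell and 175 rose over the array, and 17 pathway genes fell. The labels state no pairing. Deviations of same-numbered arrays correlated at 0.58, 0.025 and 0.56, and those of differently numbered arrays at -0.60 to 0.34. Replicate 1 of both groups was narrow and replicate 3 of both was wide, so the correlations cannot settle whether the numbers pair the samples. With the array set as a block, the counts of members, lower and higher probe sets and pathway genes were 7, 312, 198 and 14. With high or low poly-A signal as a block they were 4, 246, 94 and 8. With replicates 2 and 3 alone they were 0, 0, 0 and 0 in limma (15 members, 3730 probe sets and 42 pathway genes at an unadjusted p under 0.05). Median centring gave 1, 27, 12 and 0 (39 pathway genes at an unadjusted p under 0.05), quantile normalization 4, 206, 62 and 8, and the trend with robust estimation 3, 179, 50 and 7. With the brightest probe set per gene 8 pathway genes fell, and with the mean of probe sets 2 members and 4 pathway genes. At an adjusted p under 0.01 in limma, 0 members passed (14 at an unadjusted p under 0.05). Leaving out 1 array gave 0 to 5 members, 0 to 327 lower and 0 to 29 higher probe sets, and 0 to 9 pathway genes.

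No member that passed changed sign. Differences near 0 did. With 1 array left out, the ranges were -0.017 to 0.20 for Orc3 (1416116_at), -0.11 to 0.040 for Orc3 (1416117_at), -0.067 to 0.10 for Orc4 (1453804_a_at), -0.040 to 0.21 for Orc4 (1423336_at), -0.31 to 0.11 for Orc4 (1423337_at) and -0.17 to 0.092 for Orc5 (1415830_at). Orc4 (1453804_a_at) had -0.017 with replicates 2 and 3 alone and -0.030 with the mean of probe sets, Orc3 (1416116_at) had -0.034 with replicates 2 and 3 alone, and Orc4 (1423337_at) and Orc5 had 0.16 and 0.068 with the array set as a block. The causes were not tested.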
